A study of Mus musculus with 6 samples.

Results

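The constitutive proteasome subunits are the genes of the 20S core particle, the 19S regulatory particle and the proteasome activators. They were taken by symbol: Psma with any number, Psmb1 to Psmb7, Psmc, Psmd and Psme with any number, so that the inducible immunoproteasome genes Psmb8, Psmb9 and Psmb10 were left out. The rule found 38 of the 14777 genes in the deposited count table, and all 38 were among the 14632 genes tested. The series measured polyadenylated RNA of regulatory T cells (Treg) made in vitro, starting with naive CD4 T cells, all of the C57BL/6 strain. The ΔE2 group (3 libraries) carries a deletion of Foxp3 exon 2, and the FL group (3 libraries) has full-length FOXP3. Both groups had the same culture: 3 days on coated anti-CD3 (1 µg/ml) with anti-CD28 (1 µg/ml), human TGFβ (5 ng/ml) and human IL-2 (20 ng/ml), after which over 90% of the cells were FOXP3 positive, per the labels. The labels used here give no age and leave unsaid whether a replicate is another mouse or another culture, so the error behind each p is that among these libraries and can be technical.

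The proteasome is the barrel-shaped protease that degrades proteins tagged with ubiquitin. Alpha and beta subunits form the rings of the 20S core, with the active sites on a few beta subunits inside it, and the 19S particle recognises, unfolds and feeds in the tagged protein through its ring of ATPases. Activators of the Psme genes can cap the core in place of the 19S particle. In activated T cells proteasomes clear short-lived regulators, including the inhibitor of NF-κB, and make peptides for MHC class I.

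Total counts were 14122086 to 15658111 in ΔE2 libraries and 13307155 to 16140432 in FL libraries, and the 38 genes held 280 to 8515 counts each in a library. Foxp3 RNA stood at 436, 403 and 335 CPM (counts per 1e6 reads counted, scaled with edgeR's TMM composition factor) in ΔE2 replicates 1 to 3, and at 447, 397 and 337 CPM in FL. This count covers the whole gene and does not check the loss of exon 2. The 8 T cell and Treg markers summed to 9749 to 12154 CPM in ΔE2 and 9321 to 9939 CPM in FL. Of these, Cd3d, Cd3e, Cd3g and Cd4 were higher in every ΔE2 library, as were 13.6% of all tested genes. Their log2 fold changes were 0.37 to 0.49, and Cd4 had an adjusted p of 0.044 (edgeR quasi-likelihood test). The groups overlapped for Foxp3, Il2ra, Ctla4 and Ikzf2, the last at -0.38 (same test, adjusted p = 0.235). The CD8 markers Cd8a and Cd8b1 summed to 138, 58.4 and 50.8 CPM in ΔE2 and to 53.0, 29.0 and 48.3 CPM in FL. The groups overlapped for Cd8a, but Cd8b1 was higher in every ΔE2 library. Its log2 fold change was 0.703 (edgeR quasi-likelihood test, adjusted p = 0.090). The 4 B cell markers summed to 14.7 to 33.7 CPM in ΔE2 and 14.8 to 33.5 CPM in FL. Klrb1c, of 2 NK cell markers, stood at 0.465 to 3.61 CPM in ΔE2 and 0.416 to 2.05 CPM in FL. Of 5 myeloid markers only Lyz2 was among the genes tested, at 14.7, 2.32 and 0.759 CPM in ΔE2 and 1.48, 0.178 and 1.77 CPM in FL, and Hba-a1, of 3 erythroid markers, stood at 0.602 to 0.774 CPM in ΔE2 and 0.654 to 2.02 CPM in FL.

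No constitutive proteasome gene differed between ΔE2 and FL Treg at an adjusted p under 0.05. Of the 38 genes 0 were called higher, where 3.75% of all tested genes were, and 0 lower, where 2.43% were, together 6.17% in either direction (edgeR quasi-likelihood test, Benjamini-Hochberg over all tested genes). At an unadjusted p under 0.05, 2 genes were higher (Psmd2 and Psmc4, against 11.7% of all tested genes) and Psme4 was lower (10.8%). DESeq2, limma-voom and edgeR's likelihood ratio test also called 0 in either direction. In the authors' deposited table none of the 38 had an FDR under 0.05, where 4.91% of genes were higher and 3.26% lower, and the smallest FDR among them was 0.104, of Psmd2.

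The log2 fold changes were small and mostly above 0. They lay above 0 in 31 of the 38 genes, or 81.6%, where 49.5% of all tested genes did, with a median of 0.14 for the 38 and -0.00 over all tested genes. The standard errors were 0.11 to 0.19, so a typical member's fold change was about as large as its error. The 95% intervals of single genes reached at most 1.54-fold higher (Psmd2) and 0.657-fold (Psmd3). The groups did not overlap in 2 members, with Psma3 higher in every ΔE2 library (13.6% of all tested genes did so) and Psme4 lower in every ΔE2 library (13.5%).

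The 38 genes moved together from library to library, and their library medians spread more widely within ΔE2 than the groups differed. In ΔE2 replicate 1, 37 members stood above their own mean over the 6 libraries, in ΔE2 replicate 2 34 did, and in ΔE2 replicate 3 only Psmd3 did. In FL replicates 1, 2 and 3 the numbers were 12, 28 and 2. Over all tested genes this share was 49.7% to 52.2% in each library. The members' median deviation was 0.17, 0.20 and -0.14 on the log2 scale in the ΔE2 libraries and -0.07, 0.05 and -0.15 in the FL libraries. ΔE2 replicate 3 thus lay beside FL replicate 3, below the other FL libraries, and ΔE2 replicates 1 and 2 lay above all FL libraries. In bulk RNA a smaller part of cells with high proteasome RNA and less such RNA in every cell cannot be told apart.

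**Figure D1:**
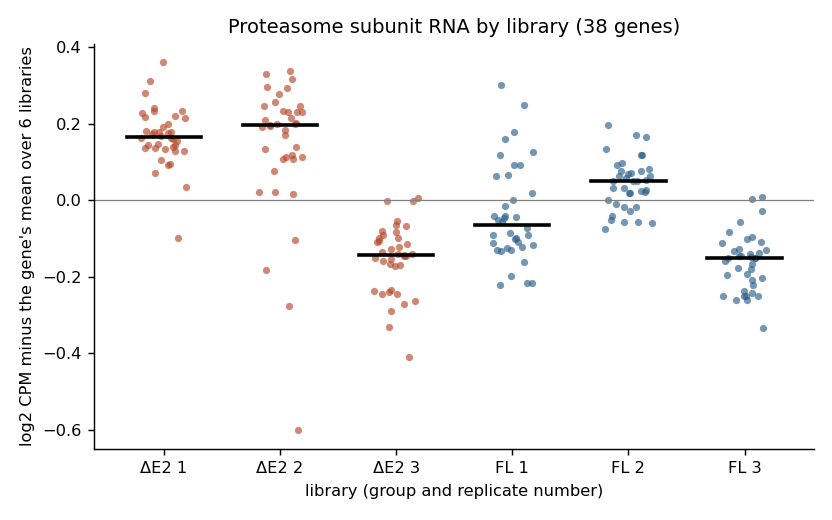
Each point is 1 of the 38 genes in 1 library, as log2 CPM minus that gene's mean over the 6 libraries (y axis), with ΔE2 and FL libraries along the x axis and black bars at the medians. The medians are 0.17, 0.20 and -0.14 in ΔE2 and -0.07, 0.05 and -0.15 in FL, so that replicate 3 is the lowest library of both groups.

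Summed over the members, RNA stood at 7787, 7796 and 6197 CPM in ΔE2 replicates 1 to 3 and at 6775, 7076 and 6164 CPM in FL replicates 1 to 3, means of 7260 ± 921 and 6671 ± 464 CPM (SD, n = 3 each). As a share of all counts, with no composition factor, the members held 0.743%, 0.713% and 0.617% in ΔE2 and 0.705%, 0.737% and 0.654% in FL. On that scale the groups overlap and the ΔE2 mean of 0.691% ± 0.0661 was no higher than the FL mean of 0.699% ± 0.0416. Without the composition factor the median log2 fold change of all tested genes became -0.14 and that of the members 0.01, with 21 of 38 above 0. The members' median exceeded that of all genes by 0.149 with the composition factor and by 0.146 without it.

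The direction also rested on ΔE2 replicates 1 and 2. When ΔE2 replicate 3 alone was set against the FL libraries, a comparison added after the data were seen, the members' median was -0.07 and 10 of 38 lay above 0. Within the same replicate number, the median ΔE2 minus FL difference in log2 CPM was 0.24 in replicate 1 (34 of 38 genes higher), 0.16 in replicate 2 (32 of 38) and 0.01 in replicate 3 (22 of 38). In all 3 pairs 21 of the 38 genes were higher in ΔE2, where 25.3% of all tested genes were, and Psme4 and Psmb4 were lower, where 25.5% were. Without ΔE2 replicate 1, the library with the most CD8 marker and Lyz2 RNA, the median was 0.10 with 30 of 38 above 0.

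The share of high-quality mapped reads that the authors' mapping table assigned to genes moved with the members. It was 75.4%, 75.5% and 69.3% in ΔE2 replicates 1 to 3 and 70.3%, 71.5% and 69.3% in FL replicates 1 to 3. Reads across splice junctions were 31.3%, 31.0% and 26.7% in ΔE2 and 26.6%, 28.1% and 26.4% in FL. The order of the 6 libraries by assigned share was the same as their order by the members' median deviation. The part of read assignment in the proteasome difference was not tested, and libraries at about 75% were ΔE2 only. Only ΔE2 replicate 3 lay within the FL range of assigned share. Its median difference was the -0.07 against all FL libraries given above, and 0.01 against FL replicate 3. Replicate 3 had the lowest assigned share in both groups, so the lowest share and that replicate number cannot be told apart here.

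**Figure D2:**
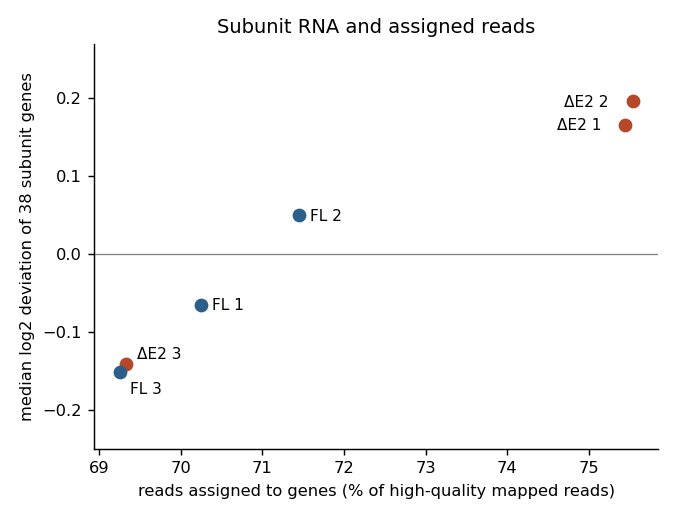
Each point is 1 library, with the percentage of high-quality mapped reads assigned to genes on the x axis and the median log2 deviation of the 38 genes on the y axis. ΔE2 replicates 1 and 2 stand apart at 75.4% and 75.5% with medians of 0.17 and 0.20, and ΔE2 replicate 3 lies beside FL replicate 3 at 69.3%.

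With the replicate number as a block, 3 members passed the test, all of the 19S particle and all higher in ΔE2, where 11.5% of all tested genes were higher. None was lower, where 10.1% were, and the members' share called lay below the 21.5% of all genes called in either direction. The block left the members' median at 0.14. The 3 genes were Psmd2, Psmc4 and Psmd11.

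Psmd2 (ENSMUSG00000006998.15, mm10 chromosome 16, 20651652 to 20663414, plus strand) encodes the 19S base scaffold that docks ubiquitin shuttle factors and the deubiquitinase Usp14. Its RNA was 336, 350 and 257 CPM in ΔE2 replicates 1 to 3, against 241, 267 and 231 CPM in FL. ΔE2 replicate 3 fell within the FL range and the other ΔE2 libraries lay above it. The log2 fold change was 0.35 ± 0.13 (SE, 95% interval 0.07 to 0.63, edgeR quasi-likelihood test, adjusted p = 0.117), the largest of the 38 in this fit, and 0.34 ± 0.10 with the block (adjusted p = 0.0047). Without ΔE2 replicate 3 it was 0.47 (adjusted p = 0.032).

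Psmc4 (ENSMUSG00000030603.16, chromosome 7, 28041707 to 28050101, minus strand) encodes an ATPase of the 19S base ring. It stood at 260, 283 and 218 CPM in ΔE2 and 217, 222 and 195 CPM in FL. The lowest ΔE2 library lay just below the highest FL library. Its log2 fold change was 0.27 ± 0.13 (adjusted p = 0.217) and 0.26 ± 0.10 with the block (edgeR, adjusted p = 0.037).

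Psmd11 (ENSMUSG00000017428.16, chromosome 11, 80428615 to 80473248, plus strand) encodes a lid subunit that clamps the 19S particle to the core. It stood at 191, 220 and 179 CPM in ΔE2 and 154, 186 and 154 CPM in FL. Replicate 2 was the highest library of both groups. Its log2 fold change was 0.26 ± 0.13 (adjusted p = 0.228) and 0.26 ± 0.09 with the block (edgeR, adjusted p = 0.036).

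The start regions of these 3 genes are shown beside those of Psmb5 and Psme4, whose log2 fold changes were below 0, since proteasome genes are known in mammals for shared promoter elements. Each line gives 100 bases before the RefSeq transcript start and 10 from it on, 5′ to 3′ on the gene's strand, from RefSeq sequence of GRCm38.p6, the assembly of mm10. Capitals mark a match on either strand to the ETS site CCGGAAG or to the antioxidant response element core TGACNNNGC, the element that NRF1 (Nfe2l1) binds; the NF-Y box CCAAT was also searched and does not occur in these 5 stretches. The regions are chr16:20651552-20651661 (plus), chr7:28050083-28050192 (minus), chr11:80428515-80428624 (plus), chr14:54617986-54618095 (minus) and chr11:30771675-30771784 (plus), in the order of the lines.
Psmd2: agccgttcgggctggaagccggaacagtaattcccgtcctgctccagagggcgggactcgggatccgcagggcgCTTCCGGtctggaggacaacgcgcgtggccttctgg
Psmc4: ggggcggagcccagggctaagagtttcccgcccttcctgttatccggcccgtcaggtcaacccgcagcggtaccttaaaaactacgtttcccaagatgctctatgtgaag
Psmd11: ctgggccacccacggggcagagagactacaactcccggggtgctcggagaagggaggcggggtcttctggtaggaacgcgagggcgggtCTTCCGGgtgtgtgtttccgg
Psmb5: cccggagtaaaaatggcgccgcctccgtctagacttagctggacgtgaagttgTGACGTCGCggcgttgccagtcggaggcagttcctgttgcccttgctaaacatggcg
Psme4: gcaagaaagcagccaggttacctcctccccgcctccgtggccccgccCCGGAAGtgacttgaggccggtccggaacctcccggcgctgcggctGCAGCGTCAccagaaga

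The ETS site began 26 bases before the start of Psmd2, 11 before that of Psmd11 and 53 before that of Psme4, and the antioxidant core began 47 bases before the start of Psmb5 and 7 before that of Psme4. Psmc4 held no match. Of the genes shown with a match, Psmd2 and Psmd11 had log2 fold changes above 0, and Psmb5 and Psme4 below 0. RefSeq windows of 300 bases were at hand for 32 of the 38 genes (35 windows). The ETS site occurred in 13 of them, 37.1%, against 8.86% of 32851 windows of all genes, the antioxidant core in 6 (17.1% against 12.4%) and the NF-Y box in 12 (34.3% against 37.4%). The median G and C content was 59.0% in the members' windows and 52.7% in all windows. A match is a run of letters and not a binding site.

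The 7 alpha subunit genes, which form the outer rings and the gate of the core, had log2 fold changes of 0.06 to 0.20, all above 0, with adjusted p of 0.325 to 0.815. Psma3 had the largest, with 275, 294 and 255 CPM in ΔE2 against 229, 248 and 238 CPM in FL (0.20 ± 0.12, edgeR adjusted p = 0.325). No other member had all ΔE2 libraries above those of FL. A pseudogene, Gm13835, is identical to it over 685 bases.

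Of the 4 structural beta subunit genes, Psmb1, Psmb2 and Psmb3 had log2 fold changes of 0.06 to 0.17. Psmb4 went the other way, with 65.6, 46.4 and 46.6 CPM in ΔE2 against 69.4, 61.7 and 52.1 CPM in FL (-0.21 ± 0.15, edgeR adjusted p = 0.423). The groups overlap, although each ΔE2 library was below the FL library of the same number.

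The 3 catalytic genes differed in sign. Psmb6, the caspase-like subunit, stood at 269, 273 and 223 CPM in ΔE2 and 226, 243 and 200 CPM in FL (log2 fold change 0.19 ± 0.13, edgeR adjusted p = 0.382). Psmb7, the trypsin-like subunit, stood at 102, 103 and 81.7 CPM in ΔE2 and 81.5, 83.8 and 76.4 CPM in FL (0.24 ± 0.12, edgeR adjusted p = 0.235, 0.061 with the block). Psmb5, the chymotrypsin-like subunit, stood at 93.1, 80.3 and 62.9 CPM in ΔE2 and 84.4, 85.9 and 71.8 CPM in FL (-0.04 ± 0.14, 95% interval -0.32 to 0.25, edgeR adjusted p = 0.912). For all 3 genes ΔE2 replicate 3 was the lowest ΔE2 library and within or below the FL range.

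All 6 ATPase genes of the 19S base ring had log2 fold changes above 0, from 0.12 for Psmc3 to the 0.27 of Psmc4, with a median of 0.17. Psmc5 followed Psmc4 at 0.21 ± 0.12 (edgeR adjusted p = 0.312). Of the 11 non-ATPase genes of base and lid, 10 were above 0, with a median of 0.14. They include Psmd14, the lid deubiquitinase that strips ubiquitin from the substrate (0.22 ± 0.13, edgeR adjusted p = 0.331), and the ubiquitin receptor Psmd4 (0.14 ± 0.12, adjusted p = 0.509).

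The lid subunit gene Psmd3 was the exception in the 19S particle. Its RNA was 36.5, 21.7 and 33.1 CPM in ΔE2 and 39.2, 37.8 and 33.1 CPM in FL, a log2 fold change of -0.27 ± 0.16 (edgeR adjusted p = 0.342, 0.058 with the block). Its lowest library was ΔE2 replicate 2, the one with the highest median deviation of all members. The genes Psmd5, Psmd9 and Psmd10 encode chaperones that help the base to assemble and leave the finished particle. Their log2 fold changes were 0.20, 0.14 and 0.16 (adjusted p of 0.335 to 0.675).

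The 4 activator genes all had log2 fold changes below 0, none past the test. Psme1 and Psme2 encode the alpha and beta chains of PA28, the activator that interferon-γ induces. Psme1 stood at 418, 402 and 323 CPM in ΔE2 and 417, 395 and 345 CPM in FL (-0.02 ± 0.13, 95% interval -0.29 to 0.26, edgeR adjusted p = 0.957). Psme2 stood at 513, 518 and 392 CPM in ΔE2 and 521, 507 and 444 CPM in FL (-0.05 ± 0.14, 95% interval -0.33 to 0.23, edgeR adjusted p = 0.877). For both genes replicates 1 and 2 were alike in the groups and ΔE2 replicate 3 was the lowest library.

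Psme3, the nuclear PA28 gamma, stood at 86.0, 68.2 and 70.7 CPM in ΔE2 and 82.4, 83.9 and 74.3 CPM in FL (-0.10 ± 0.12, edgeR adjusted p = 0.685). Psme4, the nuclear activator PA200, stood at 53.6, 53.4 and 51.5 CPM in ΔE2 and 65.004, 64.7 and 57.8 CPM in FL. All ΔE2 libraries lay below all FL libraries, and the log2 fold change was -0.24 ± 0.11 (95% interval -0.48 to -0.01, edgeR adjusted p = 0.207, 0.069 with the block). Without the composition factor Psme4 passed the test, at -0.38 (adjusted p = 0.040).

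**Figure D3:**
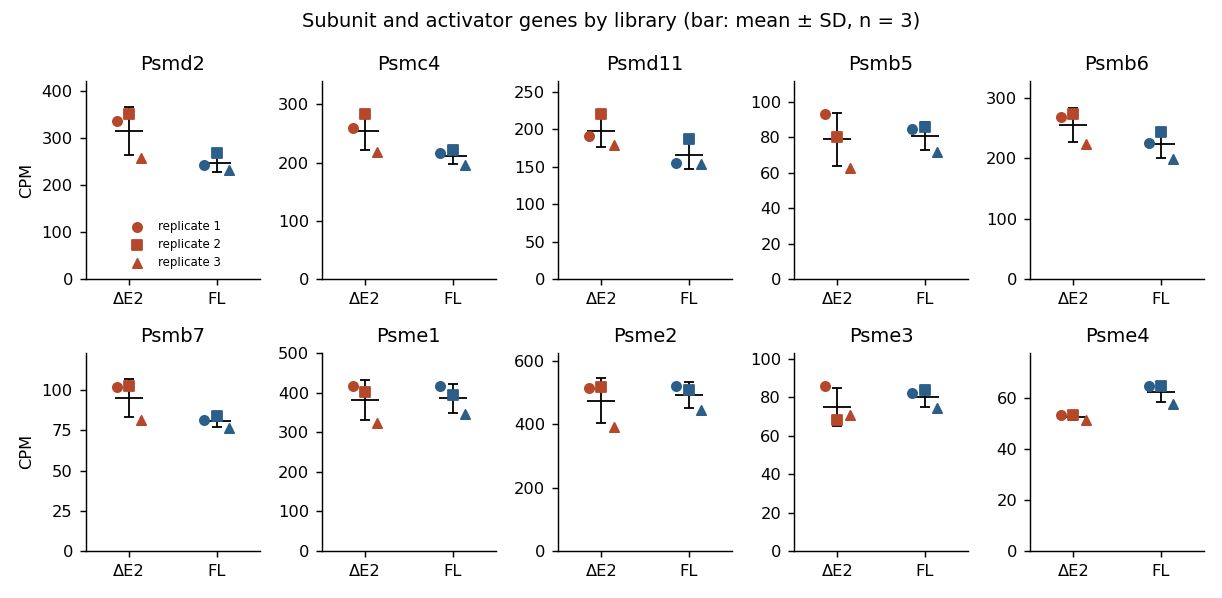
CPM (y axis, from 0) of the 3 genes called with the replicate block, the 3 catalytic genes and the 4 activators in ΔE2 and FL libraries, with the marker shape giving the replicate number and bars the mean ± SD of 3 libraries. Replicate 3 is the lowest ΔE2 library in every panel but that of Psme3, and of these genes only Psme4 has groups that do not overlap.

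**Figure D4:**
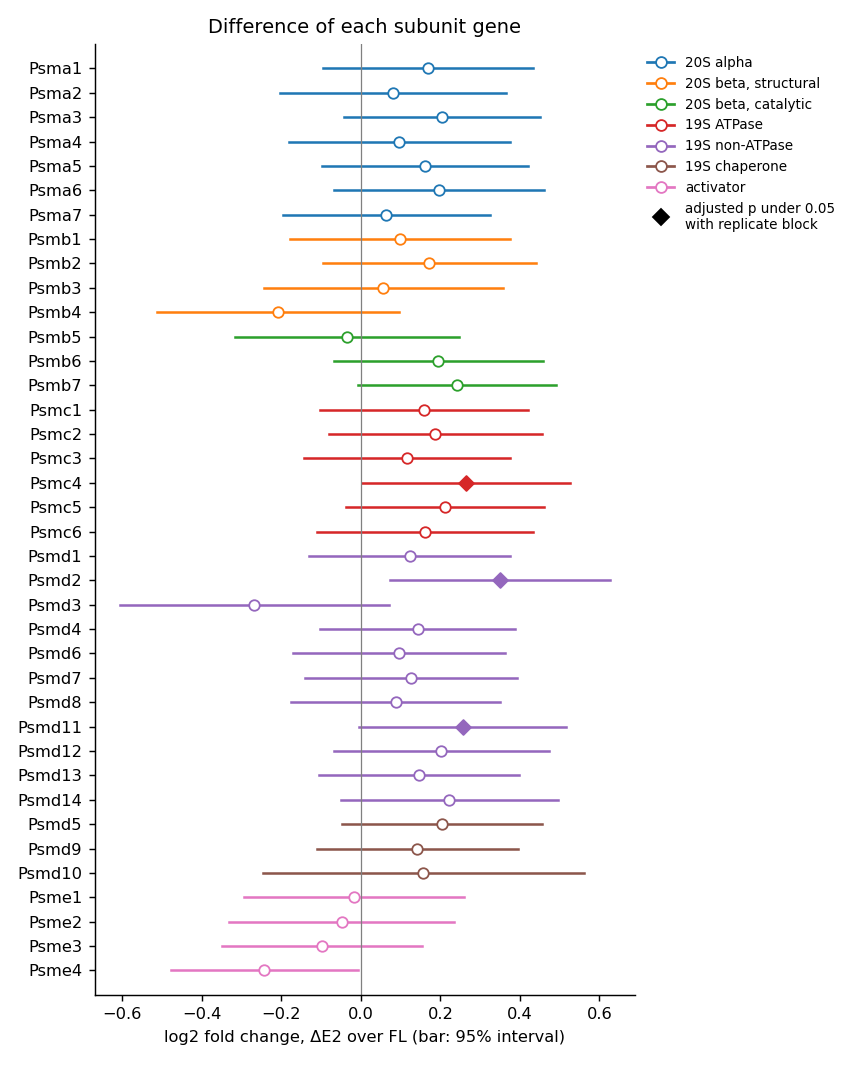
Log2 fold change of ΔE2 over FL for the 38 genes (points) with 95% intervals (bars), coloured by place in the complex, with filled diamonds for the 3 genes with an adjusted p under 0.05 with the replicate block. The points of the 4 activators and of Psmb4, Psmb5 and Psmd3 lie below 0, and the other 31 above it.

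Levels of the subunits were compared per length, as CPM per kilobase of counted exon bases. In FL libraries the 38 genes spanned 3.95 to 288 CPM per kilobase with a median of 62.9, although most subunits occupy a particle in equal numbers. The counted length is the union of all annotated exons, 871 to 8382 bases, so a gene with long rare exons has a lowered value. Psmb1 was highest, at 309 ± 50.4 CPM per kilobase in ΔE2 and 288 ± 15.8 in FL (SD, n = 3 each), followed by Psme2 at 269 in ΔE2 and 278 in FL, which did not differ from Psmb1 beyond their spread. Psmb2 had 256 in ΔE2 and 227 in FL. Within the catalytic trio the level was 136 in ΔE2 and 119 in FL for Psmb6, 90.4 and 92.7 for Psmb5, and 27.9 and 23.6 for Psmb7, all in CPM per kilobase.

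The lowest levels belonged to Psmd9 (4.36 CPM per kilobase in ΔE2 and 3.95 in FL), Psmd3 (6.12 in ΔE2 and 7.39 in FL), Psme4 (6.30 in ΔE2 and 7.46 in FL) and Psmd5 (8.79 in ΔE2 and 7.63 in FL). Psmd3 thus stood below every other subunit of the 19S lid and base, of which the next was Psmd1 at 24.7 in ΔE2 and 22.7 in FL. By CPM the 38 genes ranked from the 58.5th to the 98.0th percentile of all tested genes in FL libraries.

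**Figure D5:**
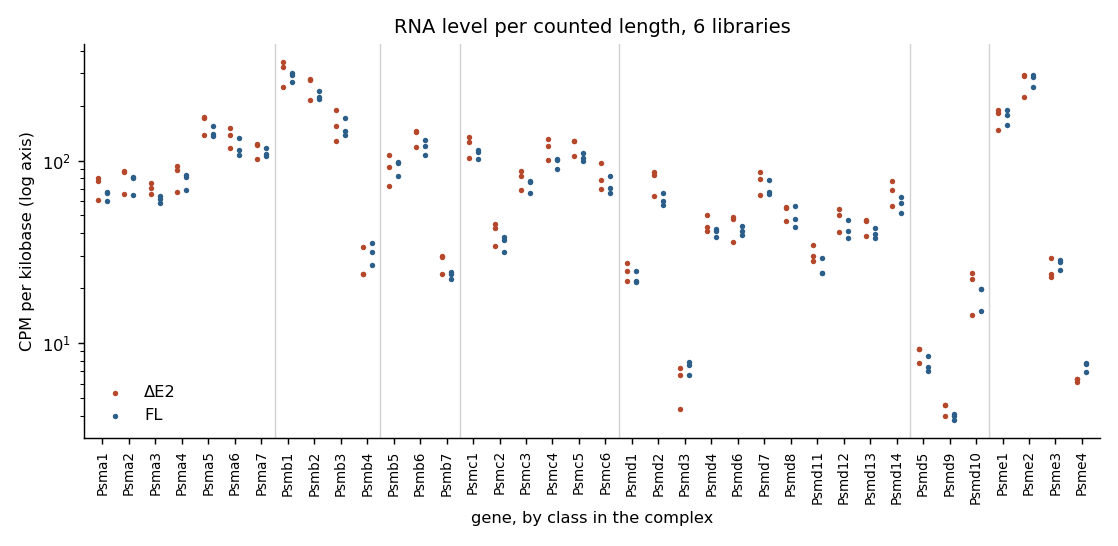
CPM per kilobase (log axis) of the 38 genes in each ΔE2 and each FL library, in the order alpha, structural beta, catalytic beta, ATPase, non-ATPase, assembly chaperone and activator, with grey lines between classes. Levels span 3.95 to 288 in the FL means, and the libraries of the groups intermingle for nearly all genes.

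Some counts can be shared with copies elsewhere in the genome. By alignment of GENCODE transcripts, 11 members had at least 1 near-identical transcript at another locus (identity of 95% or more over at least 150 bases). Counted by gene and transcript type there were 20 copies, 16 of them of a pseudogene type. Gm5422 is counted both as a processed transcript and as a pseudogene. Psmd2 matches Gm5422 over 2726 bases at 96.4%, Psmd11 matches A730017L22Rik over 1501 bases at 97.9%, Psmb5 matches Gm3375 over 796 bases at 98.9%, and Psme2 matches Psme2b over 794 bases at 99.4%, so their values are uncertain to that extent. Psmc4, Psmb6, Psmb7, Psmd3 and Psme4 had no such copy. In the authors' mapping table reads fell on the sense and reverse strands in similar numbers, so strand does not separate overlapping genes, and exons of another gene cover over 10% of the counted bases of Psmd9 (25.5%, Gm26745), Psmb5 (12.5%, Mir686), Psmb7 (11.8%, Nek6) and Psmd13 (10.1%, Sirt3).

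Of 42 other genes of the pathway that were tested, 0 passed in either direction, where 3.75% of all tested genes were higher and 2.43% lower. With the block 5 were higher and 3 lower, where 11.5% of all tested genes were higher and 10.1% lower. The 3 immunoproteasome genes, which replace the catalytic subunits after interferon-γ, all had log2 fold changes below 0. Psmb8 stood at 431 ± 87.3 CPM in ΔE2 and 496 ± 45.5 in FL (-0.20 ± 0.15, edgeR adjusted p = 0.436), Psmb10 had -0.16 ± 0.14 and Psmb9 -0.02 ± 0.12. Of 5 tested assembly factors, Psmg2 and Psmg3, chaperones of the alpha ring, were higher with the block. Psmg2 stood at 139 ± 13.8 CPM in ΔE2 and 109 ± 6.04 in FL (0.36 ± 0.12, edgeR adjusted p = 0.075, 0.0029 with the block and 0.042 with DESeq2). Psmg3 stood at 51.9 ± 3.63 CPM in ΔE2 and 42.1 ± 0.743 in FL (0.30 ± 0.12, edgeR adjusted p = 0.1196, 0.025 with the block), and Psmg1 had -0.16 ± 0.15.

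NRF1, encoded by Nfe2l1, is the transcription factor that raises proteasome genes when proteasome activity is low. Nfe2l1 stood at 142, 144 and 154 CPM in ΔE2 and 110, 119 and 126 CPM in FL, so that the groups do not overlap. Unlike the subunit genes it was highest in replicate 3 of both groups. Its log2 fold change was 0.31 ± 0.11 (edgeR adjusted p = 0.108, 0.0091 with the block). Its relative Nfe2l2 stood at 55.9, 73.3 and 50.02 CPM in ΔE2 and 46.4, 51.5 and 42.8 CPM in FL (0.35 ± 0.14, edgeR adjusted p = 0.132, 0.0084 with the block). The other 6 genes of that list did not pass with or without the block, and Maff, a small partner of these factors, had 0.20 ± 0.23.

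Among 10 associated proteins, Akirin2, which carries proteasomes into the nucleus, was 12.2 ± 1.51 CPM in ΔE2 and 15.7 ± 1.02 in FL (-0.36 ± 0.15, edgeR adjusted p = 0.160, 0.046 with the block), and Usp14 and Zfand5 had 0.23 ± 0.11 and -0.23 ± 0.12. Among 10 genes of the p97 segregase and the ubiquitin shuttles, the shuttle gene Rad23b stood at 31.6 ± 1.52 CPM in ΔE2 and 38.8 ± 3.15 in FL (-0.30 ± 0.12, edgeR adjusted p = 0.141, 0.038 with the block). Ubqln2, another shuttle gene, had -0.61 ± 0.22 at 3.23 CPM in ΔE2 and 4.96 in FL (edgeR adjusted p = 0.103, 0.023 with the block). Of the 6 ubiquitin and E1 enzyme genes, Uba1 had -0.19 ± 0.13 and Uba6 0.07 ± 0.12, and none of the 6 passed in either fit.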

How the data were processed

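Polyadenylated RNA was sequenced from 6 libraries of induced Treg, 3 ΔE2 and 3 FL, grouped by the titles. Per the file headers, the deposited table holds raw counts of 14777 genes, and how the authors chose them is not stated. Tools in the submitters' processing notes are edgeR 3.20.8, Subread 1.5.1 (featureCounts) and STAR 2.5, with the build mm10 and no settings. The authors' deposited log2 fold changes and p-values are quoted only where named, and their 6 columns of log2 CPM were not used.

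Filtering of the counts with filterByExpr (145 genes fell away) and TMM scaling preceded the test in edgeR 4.0.16 under R 4.3.3 (glmQLFit, glmQLFTest, robust, group only, two-sided). Adjusted p is Benjamini-Hochberg over 14632 genes, threshold 0.05, and the SE is the log2 fold change over the square root of F. The code was tested on simulated data. An exact permutation test of 3 against 3 cannot go below p = 0.1, so none was used. The members and lists were chosen with earlier results of these data known. Values by library are given for members called with or without the block, the catalytic genes and the activators, and up to 3 genes of each pathway list with the smallest p. Some results that this rule names are not reported here. Psma3, Psmb4 and Psmd3 were chosen after their values were seen.

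Libraries with the same replicate number deviated together from their group means (r = 0.39, 0.21 and 0.19 across genes). Between different numbers r was -0.29 to 0.097, and taking deviations from group means ties these values to one another. A block that pairs libraries by number was therefore run as an alternative, and the main fit has no block. This pairing comes from the data, not from the labels, and the block leaves 2 residual degrees of freedom. The edgeR test also shares variance across genes, and the members' SEs with the block were all 0.095 to 0.116. A p with the block thus rests mostly on that shared variance and little on the spread of a gene's own pairs. Alternatives were this block, other scalings, filters and thresholds, DESeq2 1.42.0, limma-voom (limma 3.58.1), the likelihood ratio test and each library left out. Transcripts were aligned with BLAST+ 2.17.0.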

Additional observations from a re-analysis of the deposited data

How the results depend on the processing

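Of the proteasome members 0 were called in either direction under all settings run but these: with the replicate block 3 were higher, without the composition factor Psme4 was lower (1 gene), and leaving out 1 library gave 0 to 1 higher (Psmd2, without ΔE2 replicate 3). Their median log2 fold change was 0.0086 without the composition factor, -0.071 for ΔE2 replicate 3 alone against FL (10 of 38 above 0, a fit that assumes the lone library to vary as FL does), and 0.09 to 0.23 with 1 library left out (29 to 34 above 0). Over all genes, 1678 were higher and 1471 lower with the block, 264 and 954 without the composition factor, 184 and 57 at an adjusted p under 0.01, 247 and 113 for ΔE2 replicate 3 alone, and 227 were lower with limma-voom. With 1 library left out these counts were 125 to 780 and 51 to 587. Of the pathway genes, 5 were higher and 3 lower with the block, 2 lower without the composition factor (Ubqln2 and Rad23b), 1 higher with DESeq2 (Psmg2), and 0 to 1 higher with 1 library left out (Psmg2, without ΔE2 replicate 3). With 1 library left out the log2 fold change crossed 0 for Psmb5 (-0.17 to 0.10), Psme1 (-0.091 to 0.082), Psme2 (-0.12 to 0.066), Psmb9 (-0.072 to 0.048), Maff (-0.0033 to 0.42) and Uba6 (-0.034 to 0.15), and Uba6 was -0.066 without the composition factor. The cause was not tested. Among the proteasome and pathway genes named above, the block changed no other call than those given with it. Among the cell markers, Cd3d, Cd3e, Cd3g and Cd8b1 passed as higher in ΔE2 only with the block (edgeR, adjusted p = 0.0015, 0.0040, 0.00035 and 4.3e-06). Ikzf2 passed as lower only with it (edgeR, adjusted p = 0.0014). With SEs of 0.11 to 0.19, differences of the size seen here are near the limit of 3 libraries a group.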
